A study of Mus musculus with 20 samples.

Results

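Fatty acid oxidation genes and other targets of the peroxisome proliferator-activated receptors (PPARs) were examined in the brain cortex of old APOE4 mice after a ketogenic diet (KD) or a control diet (CD). The set holds 39 genes, chosen by name and function from the 23413 genes in the count tables. The rule uses no measured value, but the set was proposed with earlier results of these data known. They are the carnitine shuttle, the acyl-CoA synthetases and thioesterases, the enzymes of mitochondrial and peroxisomal oxidation, and Pdk4, Ucp2 and Angptl4. All 39 were found in every table. Of them, 38 passed the expression filter. Cpt1b, the muscle form of the outer carnitine palmitoyltransferase, did not, with 0 to 2 counts in each library.

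The mice carried the human APOE4 allele in place of mouse Apoe (B6(SJL) background), CD groups included, so no comparison here concerns the allele itself. They were 22 months old and had been put on the CD or the KD when 10 months old, 12 months before. They were housed singly, received equal calories and had fasted overnight before the tissue was frozen. There were 5 CD females (labelled SD in the sample names), 4 KD females, 5 CD males and 6 KD males, with 1 library of total RNA from a piece of cortex per mouse.

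Long-chain fatty acids are activated to acyl-CoA by the synthetases, loaded onto carnitine by CPT1, carried across the inner mitochondrial membrane by the transporter SLC25A20 and released by CPT2. Each turn of beta-oxidation then uses a dehydrogenase, a hydratase, a second dehydrogenase and a thiolase, and yields acetyl-CoA. Peroxisomes shorten very long and branched chains with their own enzymes. PPAR alpha, a nuclear receptor that binds fatty acids, turns on many of these genes in liver, heart and muscle during fasting or high fat intake, and in the brain the pathway is found mainly in astrocytes and other non-neuronal cells.

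The libraries summed to 12207161 to 29109990 counts and fell into 2 series by library number, with 2 or 3 libraries of each group in each series. Xist stood at 319 CPM (counts of the gene scaled by the library total) or above in each female and no higher than 7.59 CPM in any male. Ddx3y, a Y-linked gene, stood at 164 CPM or above in each male and no higher than 1.64 CPM in any female but CD female E228, with 14.0 CPM. Mouse Apoe was at most 3.34 CPM in every library. The tissue pieces were not alike. All 12 striatal markers were detected in each group, and their summed level was 263.98 to 1185 CPM in CD females, 379 to 3303 in KD females, 291 to 705 in CD males and 301 to 4045 in KD males. The 7 markers of cortical excitatory neurons, all detected, summed to 324, 360 and 408 CPM in KD females E61, E68 and E207 and to 366 CPM in CD female E249, against 717 CPM or more in every other library, KD female E227 among them. KD male E59 had 2358 CPM of choroid plexus markers, against at most 62.5 CPM elsewhere. Of 5 red cell markers 1 was detected, and the 4 globin genes had no counts or no entry in the count tables. In such pieces a lower level can mean fewer cells of a type or less RNA per cell, which cannot be told apart.

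Levels were first compared per transcript length, as CPM per kilobase of the principal transcript. Of the 5 acyl-CoA synthetases 4 had the highest levels of the set, with Acsl3 at 103 ± 10.4 CPM per kb (SD over the 20 mice), Acsl6 at 75.4 ± 11.05, Acsl4 at 41.2 ± 7.40 and Acsl5 at 37.6 ± 8.77, while Acsl1 was lower at 20.3. Acsl4 and Acsl5 lay within each other's spread, as did the genes that followed, Hadhb at 28.7 ± 4.56, Hsd17b4 at 27.7 ± 3.01 and Echs1 at 26.6 ± 2.70 CPM per kb. Among the genes named Cpt1, which are compared here by transcript level and not by enzyme activity, the brain form Cpt1c was at 14.6 ± 4.54 CPM per kb. The liver form Cpt1a was at 7.51 ± 1.12, while Cpt1b was at 0.00772. Cpt2, which undoes the CPT1 step inside the mitochondrion, was lower at 1.75 ± 0.415 CPM per kb. Other genes best known as PPAR targets were lower than Cpt1a. Pdk4 was at 4.57 ± 0.678 CPM per kb, Acot2 at 3.12 ± 0.999, Acot1 at 2.38 ± 0.430, Ucp2 at 0.711 ± 0.280 and Angptl4 at 0.659 ± 0.297, the last pair not differing beyond their spread. Such levels are uncertain for genes that share sequence with other annotated genes. Of the 50-base stretches of the transcript, 93.0% in Cpt1b, 67.3% in Etfb, 62.4% in Hadhb, 35.1% in Acaa1a, 33.6% in Acot1 and 27.7% in Acot2 also occur in transcripts of other genes. For Cpt1b and Etfb these are genes with overlapping exons on the same strand (Gm44502 and Gm45233), which were not among the counted genes. Exons of Ucp2, Acaa1a, Echs1, Acadvl and Crat overlap counted genes on the opposite strand (Dnajb13, Myd88, Paox, Dvl2 and Dolpp1). So do those of Acsl5, Acox3 and Etfdh (Zdhhc6, 4931431C16Rik and 4930579G24Rik). Exons of Acsl3, the gene of highest level, overlap the counted gene Utp14b on the same strand, with 4.05% of its 50-base stretches shared.

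**Figure D1:**
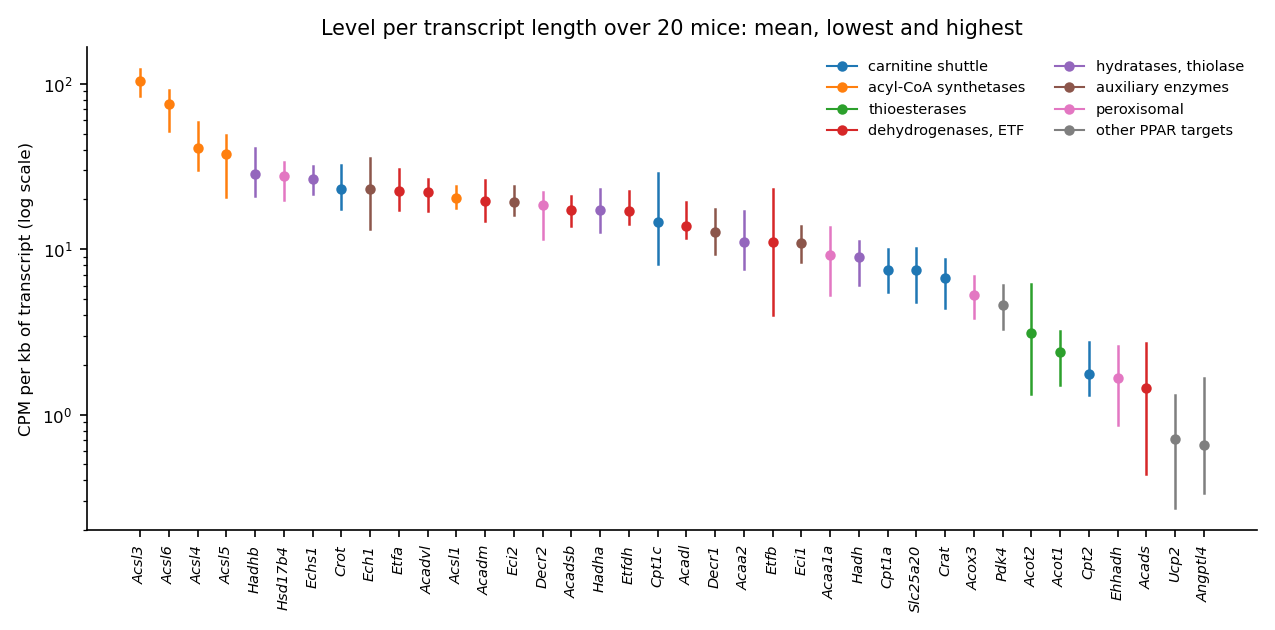
Level of the 38 tested genes in CPM per kilobase of transcript (log axis), ordered by the mean over 20 mice (dot), with the lowest and highest mouse (line) and colours for the role of each gene. The 4 synthetases Acsl3, Acsl6, Acsl4 and Acsl5 lead, and Ucp2 and Angptl4 come last.

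The effect of the diet in females was tested with edgeR's quasi-likelihood test on all 15660 genes that passed the filter, with the 4 groups and the library series in the model and Benjamini-Hochberg adjustment (FDR). A differentially expressed gene (DEG) had an FDR of at most 0.1 and a change of at least 1.5-fold. None of the 38 genes was a DEG between KD and CD females, where 0.0447% of all genes were, and DESeq2 and edgeR's likelihood-ratio test also called 0. At an unadjusted p under 0.05 there were 7 of 38 in the set, 6 higher and 1 lower on the KD, against 11.4% of all genes (5.86% higher and 5.5% lower). That count was 2 without CD female E265 or KD female E207, 3 without KD female E61, 4 without CD female E62 or E67 and 11 without CD female E249. The 11.4% of all genes belongs to the fit with all mice, and the share in the fits without a mouse is not given here. The log2 fold change was above 0 for 32 of the 38, against 52.7% of all genes, and its median was 0.15, against 0.01 over all genes. For 26 of the 38 the 95% confidence interval lay wholly inside a 1.5-fold change in either direction. The other 12, whose intervals reached 1.5-fold, were Acaa1a, Acaa2, Acads, Acot1, Acot2, Acsl5, Angptl4, Ech1, Ehhadh, Etfb, Pdk4 and Ucp2.

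Each mouse was summarised by the mean z-score of the 38 genes, where a gene's z-score is its log2 CPM centred and scaled over the 20 mice. It was 0.21, 0.23, 0.82 and 0.94 in the KD females and -0.90, -0.25, -0.10, -0.05 and -0.03 in the CD females. All 4 KD females thus lay above all 5 CD females, while CD female E265, the lowest, and KD females E68 and E61, the highest, stood apart from the rest of their groups. These scores are scaled by library totals, and the upper-quartile scaling and series term of the fit do not enter them. The CD males were at -0.33 to 0.22 (median -0.22) and the KD males at -0.62 to 0.54 (median -0.00302), and the male groups overlapped. KD male E64 held the highest CPM of 11 of the 38 genes, KD female E68 of 9 and KD female E61 of 7. CD female E265 held the lowest CPM of 12. KD males E64 and E254 had the highest summed markers of meningeal fibroblasts (5 of 5 detected), 330.2 and 170.2 CPM against at most 154 CPM elsewhere, and the lowest of oligodendrocytes (8 of 8 detected), 1356 and 1493 CPM against 2344 CPM or more. The part of these in their values was not tested.

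**Figure D2:**
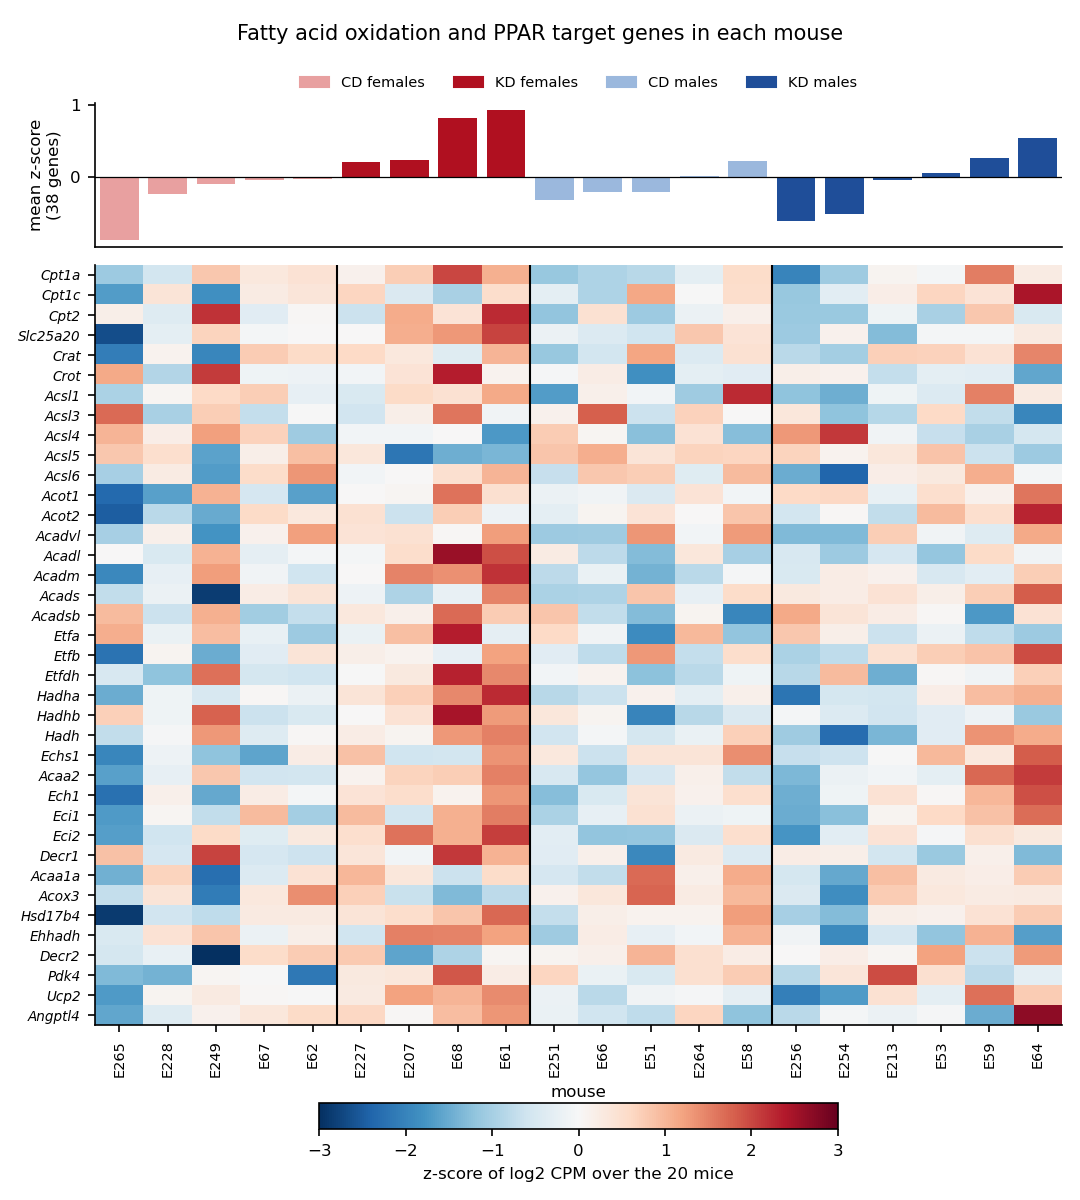
Top, mean z-score of the 38 genes in each mouse, coloured by group. Bottom, z-score of log2 CPM of each gene (rows, by role) in each mouse (columns, by group and then by mean z-score). The 4 KD females are all above 0 and the 5 CD females all below 0, with CD female E265 at -0.90.

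**Figure D3:**
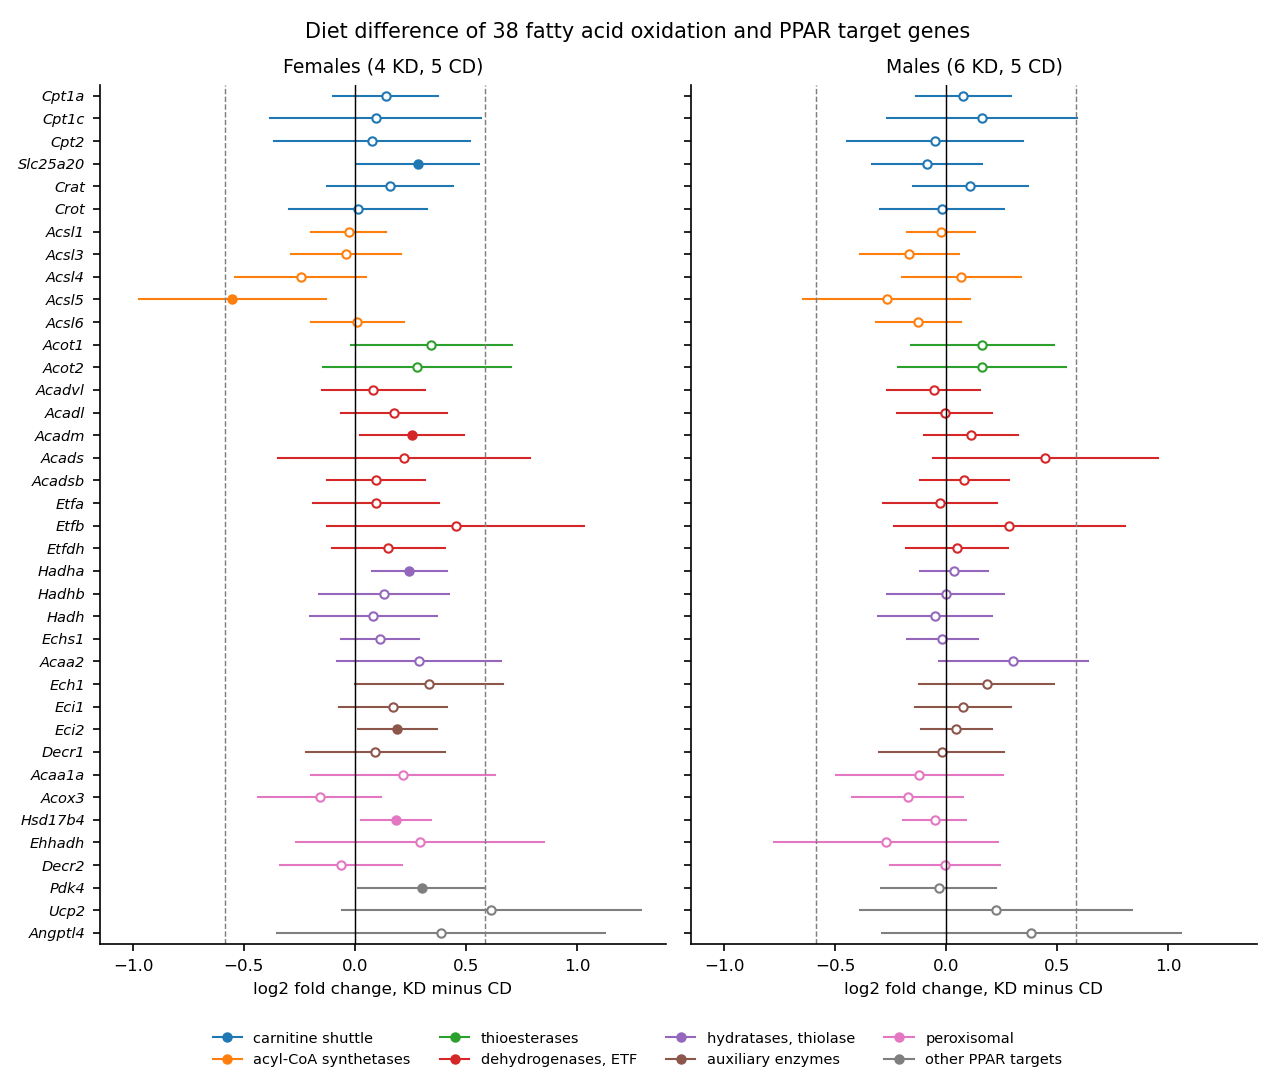
Log2 fold change between KD and CD with its 95% confidence interval for the 38 genes, in females (left) and males (right). Filled dots have an unadjusted p under 0.05, and dashed lines mark a 1.5-fold change. In females 32 of 38 dots lie right of 0, and in males 18 of 38.

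In the carnitine shuttle all 6 tested genes had log2 fold changes above 0 in females (52.7% of all genes did), with a median of 0.12, and 1 of the 6 had an unadjusted p under 0.05 (11.4% of all genes did). That gene was Slc25a20, the carnitine-acylcarnitine carrier. It was at 8.58, 12.5, 13.0, 13.1 and 14.6 CPM in CD females and at 13.2, 15.6, 16.1 and 18.1 CPM in KD females. The 3 highest KD females were above every CD female, and the fourth, E227, was inside the CD range. Its log2 fold change was 0.28 (standard error 0.13, edgeR FDR 0.426), and without CD female E265 it was 0.20. In males Slc25a20 was at 11.9, 12.3, 12.7, 14.0 and 14.9 CPM on the CD and at 10.7 to 13.7 CPM (median 13.0) on the KD, and the ranges overlapped, with a log2 fold change of -0.09. Cpt1a, the gate of the pathway and a classical PPAR alpha target, was at 27.2, 29.6, 33.6, 34.2 and 36.2 CPM in CD females and 32.7, 35.8, 37.5 and 43.2 CPM in KD females. The groups overlapped, and the log2 fold change was 0.14 (95% interval -0.10 to 0.38), or 0.08 without KD female E68 and 0.21 without CD female E249. In males Cpt1a was at 27.1, 27.9, 28.3, 30.7 and 34.9 CPM on the CD and 23.9 to 40.4 CPM (median 32.1) on the KD, a log2 fold change of 0.08. Cpt2 was at 3.73, 3.77, 4.09, 4.21 and 6.47 CPM in CD females and 3.53, 4.44, 5.15 and 6.56 CPM in KD females, which overlapped almost wholly. Its log2 fold change was 0.08, and it was 0.25 without E249, 0.21 without E227, 0.12 without E68, 0.44 in series 1 and -0.21 in series 2. Cpt1c, Crat and Crot, a carnitine acetyltransferase and a carnitine octanoyltransferase among them, had log2 fold changes of 0.01 to 0.16 in females and -0.02 to 0.16 in males.

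The acyl-CoA synthetases, which activate fatty acids, had few values above 0. In females 1 of 5 had a log2 fold change above 0 (Acsl6, at 0.01), against 52.7% of all genes. In males it was also 1 of 5 (Acsl4, at 0.07), against 49.1% of all genes. Acsl5, a synthetase of the outer mitochondrial membrane and endoplasmic reticulum, was at 101, 162, 176, 192 and 197 CPM in CD females and at 87.4, 106, 108 and 169 CPM in KD females. The low CD value was E249 and the high KD value E227, and without these mice the groups did not overlap. This made a log2 fold change of -0.55 (standard error 0.20, edgeR FDR 0.289), and Acsl5 was no DEG. It was a DEG without CD female E249 (log2 fold change -0.69, edgeR FDR 0.0299) and without KD female E227 (-0.78, edgeR FDR 0.0366). The share of all genes called in these fits is not given here. Other genes moved too, as Acadm went from an edgeR FDR of 0.384 to 0.0501 without E249. Diet and tissue content cannot be told apart in these calls, as described below. In males it was at 171, 184, 185, 193 and 206.99 CPM on the CD and at 116 to 194 CPM (median 164) on the KD, a log2 fold change of -0.27 (95% interval -0.65 to 0.11). KD males E64, E59, E254 and E213 were below every CD male, and E256 and E53 were not. Acsl5 shares exon sequence with Zdhhc6 on the opposite strand, and which strand was counted is not stated. Acsl1, Acsl3 and Acsl4 had log2 fold changes of -0.03, -0.04 and -0.24 in females. Mean CPM, which is scaled by the library total and not the upper quartile, was on the other side for Acsl1 and Acsl3. Acsl1 was at 79.3 CPM in CD and 81.7 CPM in KD females, Acsl3 at 414 and 418 CPM, and Acsl6 at 193 and 205 CPM.

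The acyl-CoA thioesterases Acot1 and Acot2 free fatty acids from CoA in the cytosol and the mitochondrion and are strong PPAR alpha targets in liver. They lie 15616 bases apart on chromosome 12 and share sequence, so that reads may have been split between them. Acot1 was at 3.41, 3.90, 3.90, 4.82 and 6.47 CPM in CD females and 5.32, 5.37, 5.82 and 7.24 CPM in KD females, all KD values being above 4 of the 5 CD values. The females gave a log2 fold change of 0.34 (95% interval -0.02 to 0.71, and 0.23 without KD female E68) and the males, at 4.90, 5.15, 5.20, 5.22 and 5.75 CPM on the CD and 5.09 to 7.202 CPM (median 5.89) on the KD, one of 0.16. Averaged over the sexes it was 0.25 (edgeR FDR 0.332). Acot2 was at 2.94, 4.01, 5.03, 7.23 and 7.86 CPM in CD females and 5.30, 6.21, 7.54 and 8.27 CPM in KD females, a log2 fold change of 0.28 (95% interval -0.15 to 0.70). It was 0.10 without KD female E227 and 0.18 without CD female E265, and -0.10 in series 1 against 0.61 in series 2. In males it was at 5.96, 6.55, 6.73, 7.46 and 8.52 CPM on the CD and 5.16 to 13.5 CPM (median 7.14) on the KD. Both pairs of groups overlapped, and the highest Acot2 value was that of KD male E64, without which the log2 fold change in males went from 0.16 to 0.02.

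The acyl-CoA dehydrogenases open each turn of mitochondrial beta-oxidation and pass electrons to the electron transfer flavoprotein (Etfa, Etfb) and its dehydrogenase (Etfdh). All 8 had log2 fold changes above 0 in females, from 0.08 to 0.45 (52.7% of all genes were above 0). An unadjusted p under 0.05 was seen for 1 of the 8, near the 11.4% of all genes. In males 5 of 8 were above 0, against 49.1% of all genes. Acadm, which encodes the medium-chain enzyme, was at 30.1, 36.4, 38.3, 38.9 and 47.3 CPM in CD females and 39.6, 48.1, 48.9 and 53.8 CPM in KD females. All KD females were above 4 of the 5 CD females, and CD female E249 lay among them. That is a log2 fold change of 0.26 (standard error 0.11, edgeR FDR 0.384). In males Acadm was at 32.4, 35.3, 35.5, 38.5 and 39.4 CPM on the CD and 36.9 to 43.9 CPM (median 39.1) on the KD, a log2 fold change of 0.11, and averaged over the sexes the value was 0.18 (edgeR FDR 0.269). Acadl, the long-chain enzyme, was at 24.9, 25.5, 26.2, 26.4 and 30.2 CPM in CD females and 26.3, 28.3, 33.9 and 36.8 CPM in KD females, with a log2 fold change of 0.17 (95% interval -0.06 to 0.41). KD females E61 and E68 were above every CD female, and the others were not. Without E68 the value was 0.07, and it was 0.41 in series 1 and -0.07 in series 2. Acadvl, the very-long-chain enzyme, had 0.08 in females and -0.06 in males. The short-chain enzyme Acads had the largest value of the 8 in males, 0.45 (95% interval -0.06 to 0.95), at a level of 0.819 to 5.04 CPM.

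The mitochondrial trifunctional protein carries out the later steps on long chains, and its alpha subunit gene Hadha had the smallest p of the set in females. The gene spans chr5:30118304-30155162 (GRCm38, minus strand). It was at 56.0, 64.4, 66.95, 67.4 and 69.0 CPM in CD females and at 72.4, 75.7, 83.5 and 93.1 CPM in KD females. Every KD female was above every CD female, as was true, in this direction, of 1.7% of all genes and of 3 of the 38 here (Hadha, Hsd17b4 and Pdk4). In the other direction it was true of 0.402% of all genes. These separations were read on CPM scaled by library totals, without the upper-quartile scaling and series term of the fit. The log2 fold change of Hadha was 0.24 (95% interval 0.07 to 0.41, edgeR FDR 0.246), a 1.18-fold difference. Within series 1 it was 0.34 and within series 2 it was 0.17. In males Hadha was at 61.3, 62.8, 66.03, 69.8 and 70.0 CPM on the CD and 50.95 to 79.4 CPM (median 67.2) on the KD, a log2 fold change of 0.03 (95% interval -0.12 to 0.19), and the CD range lay inside the KD range. The interaction, the diet effect in females minus that in males, was 0.21 for Hadha (standard error 0.11, edgeR FDR 1.0). Hadhb, the beta subunit gene, starts 85 bases from Hadha on the other strand. It was at 52.6, 54.2, 56.9, 64.7 and 75.7 CPM in CD females and 58.3, 62.03, 70.4 and 84.1 CPM in KD females, which overlapped, with a log2 fold change of 0.13 (95% interval -0.16 to 0.42). Hadhb was at -0.00685 without KD female E68, 0.22 without E227 and 0.21 without E249, and at 0.50 in series 1 and -0.20 in series 2. Acaa2, the mitochondrial thiolase, was at 11.4, 14.4, 14.5, 15.5 and 19.4 CPM in CD females and 16.7, 18.9, 19.2 and 22.6 CPM in KD females, where only E61 was above every CD female. In males it was at 12.7, 13.9, 14.7, 14.7 and 16.8 CPM on the CD and 12.2 to 25.7 CPM (median 15.9) on the KD, where E59 and E64 alone were above the CD range. Its diet effect on the log2 scale was 0.29 for females, 0.30 for males and 0.30 averaged over the sexes (edgeR FDR 0.259). Males gave 0.61 in series 1 and -0.10 in series 2, and 0.20 without E64. Hadh and Echs1, which act on shorter chains, had log2 fold changes of 0.08 and 0.11 in females and -0.05 and -0.02 in males.

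Promoter windows of 300 bases (250 before and 50 after the start in RefSeq, GRCm38.p6) were held for 33 of the 39 genes. PPARs bind with RXR to a pair of AGGTCA motifs separated by a single base. The paired form AGGTCANAGGTCA was in 0 of the 33 windows on either strand, and in 0.0481% of 27025 genes with a window. The single motif AGGTCA, which is contained in the paired form, was in 6 of 33 (Cpt1a, Cpt1c, Acsl6, Acadvl, Acadm and Echs1), or 18.2%, against 18.1% of all genes. A match is a string of letters and no binding site, and binding was not measured here. The windows of Cpt1a and Acadm are shown for their single motif (in capitals, as TGACCT where it reads on the other strand), and that of Hadha, which holds neither form, because Hadha had the smallest p in females. Cpt1a lies at chr19:3323051-3323350 (plus strand), Acadm at chr3:153944594-153944893 and Hadha at chr5:30154931-30155230 (both minus strand), each written 5′ to 3′.
Cpt1a: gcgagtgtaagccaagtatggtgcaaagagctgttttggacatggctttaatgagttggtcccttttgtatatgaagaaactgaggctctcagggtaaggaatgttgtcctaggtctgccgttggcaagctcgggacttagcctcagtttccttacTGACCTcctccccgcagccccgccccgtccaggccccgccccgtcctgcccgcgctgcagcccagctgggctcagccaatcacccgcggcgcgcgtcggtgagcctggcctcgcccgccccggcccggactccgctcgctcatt
Acadm: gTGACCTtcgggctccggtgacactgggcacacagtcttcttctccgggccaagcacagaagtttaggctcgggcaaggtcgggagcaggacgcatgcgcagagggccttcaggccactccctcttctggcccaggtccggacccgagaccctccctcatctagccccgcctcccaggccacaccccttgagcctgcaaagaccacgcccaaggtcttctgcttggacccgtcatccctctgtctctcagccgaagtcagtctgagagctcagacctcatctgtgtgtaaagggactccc
Hadha: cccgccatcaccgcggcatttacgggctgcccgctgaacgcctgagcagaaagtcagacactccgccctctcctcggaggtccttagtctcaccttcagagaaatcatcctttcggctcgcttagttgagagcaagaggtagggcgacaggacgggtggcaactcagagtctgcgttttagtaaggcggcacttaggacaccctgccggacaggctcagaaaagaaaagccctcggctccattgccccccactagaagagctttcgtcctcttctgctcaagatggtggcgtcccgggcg

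The 4 auxiliary enzymes, which prepare unsaturated fatty acids for beta-oxidation, all had log2 fold changes above 0 in females, from 0.09 to 0.33 (52.7% of all genes were above 0). Of the 4, 1 had an unadjusted p under 0.05, against 11.4% of all genes. In males 3 of 4 were above 0, against 49.1% of all genes. Eci2, an enoyl-CoA isomerase of mitochondria and peroxisomes, was at 28.3, 31.6, 32.4, 34.7 and 35.7 CPM in CD females and 35.5, 37.7, 40.0 and 41.9 CPM in KD females. The lowest KD female, E227, was just under the highest CD female, E249. In females this was a log2 fold change of 0.19 (standard error 0.08, edgeR FDR 0.396). In males, where Eci2 was at 29.7, 29.8, 32.1, 32.6 and 35.5 CPM on the CD and 27.9 to 35.4 CPM (median 34.1) on the KD, it was 0.04. Ech1, a dienoyl-CoA isomerase, was at 16.8, 19.8, 28.2, 29.6 and 30.2 CPM in CD females and 29.3, 31.4, 32.5 and 39.1 CPM in KD females, with the CD values of E265 and E249 far below the other 3. In males it was at 21.1, 25.6, 29.4, 31.4 and 32.2 CPM on the CD and 20.2 to 45.0 CPM (median 30.2) on the KD. Averaged over the sexes its log2 fold change was 0.26 (edgeR FDR 0.282).

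Of the 5 peroxisomal enzymes 3 had values above 0 and 2 below in females, where 52.7% of all genes were above 0. An unadjusted p under 0.05 was seen there for 1 of the 5, against 11.4% of all genes. All 5 had values below 0 in males (-0.27 to -0.01), where 49.1% of all genes were above 0. Hsd17b4, the bifunctional enzyme of peroxisomal beta-oxidation of very long and branched chains, was at 53.4, 67.9, 69.3, 76.4 and 76.4 CPM in CD females and 77.4, 78.7, 81.4 and 90.0 CPM in KD females. In CPM the groups did not overlap, though KD female E227 was close to CD females E62 and E67. The log2 fold change was 0.18 (standard error 0.07, edgeR FDR 0.349), with 0.13 within series 1 and 0.23 within series 2, and without CD female E265 it was 0.13, with an unadjusted p no longer under 0.05. In males Hsd17b4 was at 68.2, 74.9, 75.0, 75.5 and 85.5 CPM on the CD and 63.7 to 80.7 CPM (median 75.3) on the KD, a log2 fold change of -0.05. The interaction was 0.24 for Hsd17b4 (standard error 0.10, edgeR FDR 1.0), and it was the only one of the 38 with an unadjusted p under 0.05, against 2.14% of all genes (1.09% above 0 and 1.05% below). Ehhadh, the other peroxisomal bifunctional enzyme and a PPAR alpha target in liver, was at 4.13, 4.50, 5.04, 5.48 and 6.23 CPM in CD females and 3.95, 6.99, 7.67 and 7.73 CPM in KD females. KD female E227 held the lowest of these 9 values and the other 3 KD females the highest, and the log2 fold change was 0.29 (95% interval -0.26 to 0.85), or 0.47 without E227. Ehhadh in males was at 3.39, 4.42, 4.65, 5.12 and 6.66 CPM on the CD and 2.59 to 6.66 CPM (median 3.66) on the KD.

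Pdk4, Ucp2 and Angptl4 are targets of PPARs outside the pathway itself, and all 3 had values above 0 in females, as did 52.7% of all genes. Pdk4, the kinase that shuts down pyruvate dehydrogenase when fat is burned, was at 11.5, 12.8, 12.9, 15.7 and 15.9 CPM in CD females and 16.3, 16.4, 16.6 and 20.7 CPM in KD females. In CPM the groups did not overlap, though 3 KD values lay within 1 CPM of the highest CD value. Pdk4 had a log2 fold change of 0.30 (standard error 0.14, edgeR FDR 0.416), and without KD female E68 it was 0.18 and its unadjusted p was no longer under 0.05. In males Pdk4 was at 14.7, 15.3, 16.9, 17.3 and 17.6 CPM on the CD and 13.9 to 21.03 CPM (median 15.8) on the KD, a log2 fold change of -0.03. The CD males were thus above 3 of the 5 CD females and overlapped the KD females. Ucp2, a mitochondrial carrier abundant in immune cells, was at 1.27, 2.62, 2.67, 2.71 and 2.95 CPM in CD females and 2.93, 4.01, 4.34 and 4.74 CPM in KD females. The KD values of E68, E207 and E61 were above every CD female. With a log2 fold change of 0.62 (95% interval -0.06 to 1.29, edgeR FDR 0.495) Ucp2 had the largest value of the set in females, and in males it was at 1.85, 2.34, 2.45, 2.51 and 2.59 CPM on the CD and 1.08 to 5.25 CPM (median 2.76) on the KD. Microglial markers, all 8 detected, summed to 290 to 401 CPM in CD females and to 375, 402, 499.8 and 546 CPM in KD females E227, E207, E68 and E61. Their part in the Ucp2 values was not tested. Angptl4, a secreted inhibitor of lipoprotein lipase, was at 1.11, 1.75, 2.13, 2.31 and 2.52 CPM in CD females and 2.06, 2.57, 2.89 and 3.34 CPM in KD females. In males it was at 1.27, 1.52, 1.61, 1.88 and 2.59 CPM on the CD and 1.14 to 5.55 CPM (median 1.94) on the KD, the highest being E64, and the groups overlapped in both sexes. The females gave a log2 fold change of 0.39 and the males one of 0.38, which was -0.05 without E64.

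**Figure D4:**
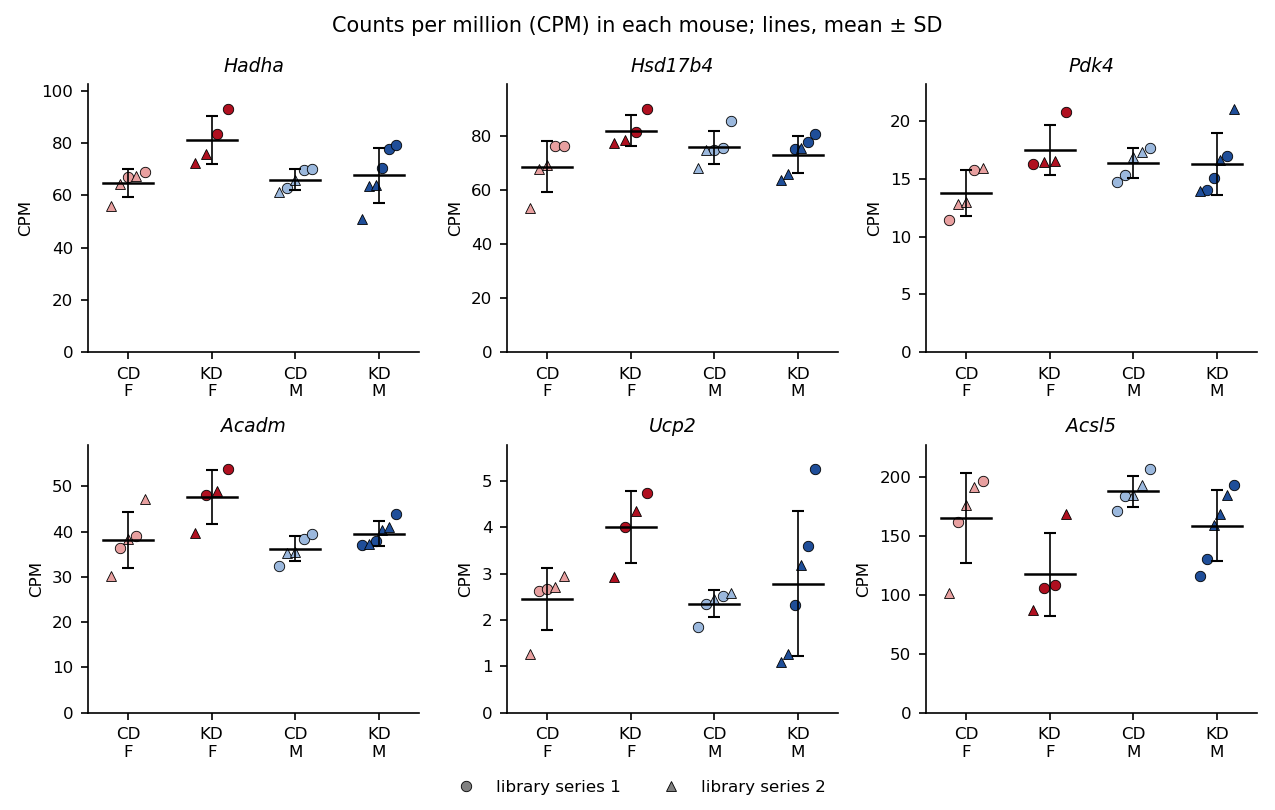
CPM of Hadha, Hsd17b4, Pdk4, Acadm, Ucp2 and Acsl5 in each mouse by diet and sex, with circles for library series 1, triangles for series 2, and lines for the mean ± SD. Hadha, Hsd17b4 and Pdk4 are higher in all 4 KD females than in all 5 CD females, while the male groups overlap in all 6 genes.

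In males no gene of the set was a DEG, where 0.0% of all genes were, and 0 of 38 had an unadjusted p under 0.05 in edgeR or DESeq2, against 3.56% of all genes (2.37% higher and 1.19% lower). Log2 fold changes were above 0 for 18 of 38, against 49.1% of all genes, with a median of -0.0047, and KD and CD males overlapped in every gene of the set (0.102% of all genes were higher without overlap and 0.115% lower). For 30 of the 38 the 95% confidence interval lay inside a 1.5-fold change in either direction. Both sexes had values above 0 for 17 of the 38 genes and below 0 for 5, against 34.5% and 32.7% of all genes. For the interaction, 0 genes of the set passed the threshold in edgeR, where 0.0% of all genes did, and 31 of 38 values were above 0, against 51.3% of all genes. A difference between the sexes in the response of any single gene of the set was therefore not shown. Averaged over the sexes, 0 of 38 were DEGs, against 0.268% of all genes, and 6 of 38 had an unadjusted p under 0.05 (Hadha, Acadm, Acaa2, Ech1 and Acot1 higher, Acsl5 lower), against 13.9% of all genes (7.41% higher and 6.44% lower). There 30 of 38 values were above 0, against 51.5% of all genes.

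Females were compared with males over both diets. None of the 38 was a DEG, against 0.134% of all genes, and 8 of 38 had an unadjusted p under 0.05, 7 higher in females and 1 lower, against 13.6% of all genes (8.59% higher and 4.96% lower). Values were above 0 for 24 of 38, against 50.8% of all genes. Higher in females were Cpt1a (log2 difference 0.18), Cpt2 (0.32), Acadl (0.20), Acadm (0.16), Hadha (0.12), Hadhb (0.24) and Ehhadh (0.40), and lower was Acsl5 (-0.33). The edgeR FDR of these genes was from 0.271 for Acadl to 0.364 for Acadm. Without KD female E227 the count was 15, and without CD female E249, KD female E68 or CD male E51 it was 3. The share of all genes in the fits without a mouse is not set beside these counts. With the score of the cortical excitatory markers as a covariate, the difference was -0.02 for Acadm and -0.03 for Cpt2. Hadhb was at 43.0, 51.1, 54.4, 58.9 and 61.2 CPM in CD males and 49.2 to 57.5 CPM (median 54.9) in KD males, below the 2 highest values of both female groups. Acadl was at 22.4, 23.3, 23.9, 27.2 and 27.6 CPM in CD males and 22.7 to 28.4 CPM (median 24.8) in KD males, which overlapped the lower values of both female groups. Cpt2 in CD males was at 3.14, 3.21, 3.91, 4.19 and 4.47 CPM, and in KD males at 3.18 to 4.83 CPM (median 3.48).

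The pathway was also read through 37 related genes that were no members, of which 36 were tested (Acaa1b was not). None was a DEG in females (0.0447% of all genes were), and 3 of 36 had an unadjusted p under 0.05 there, against 11.4% of all genes, Plin2 higher and Pparg and Pdk1 lower. Ppara, the receptor itself, had log2 fold changes of 0.10 in females and 0.17 in males, Ppard -0.38 and -0.05, and the coactivator gene Ppargc1a -0.14 and -0.15, and none of these had an unadjusted p under 0.05. Pparg was at 4.59, 6.28, 7.70, 8.02 and 9.04 CPM in CD females and 2.41, 2.87, 3.19 and 7.12 CPM in KD females. As for Acsl5, E249 held the lowest CD value and E227 the highest KD value. The log2 fold change of Pparg was -0.95 (standard error 0.27, edgeR FDR 0.206), and averaged over the sexes it was -0.66 (edgeR FDR 0.128). Pdk1, a sister kinase of Pdk4, was at 109.5, 122, 128, 129.5 and 135 CPM in CD females and 77.8, 78.7, 83.2 and 133 CPM in KD females, a log2 fold change of -0.48 (edgeR FDR 0.202). KD female E227 was again at the level of the CD females. In males the value was -0.02, and the interaction was -0.45 (edgeR FDR 1.0). Plin2, the coat protein of lipid droplets and a PPAR target, had 0.32 in females (edgeR FDR 0.399) and 0.18 in males. In males 1 of 36 had an unadjusted p under 0.05, against 3.56% of all genes. This was Cd36, a fatty acid transporter gene, at 1.53 (edgeR FDR 1.0), with 8.75 CPM in KD male E64 and 6.87 CPM in KD male E254 above all other mice, the libraries with the highest meningeal and lowest oligodendrocyte markers. Averaged over the sexes it was 8 of 36, with 4 higher and 4 lower, against 13.9% of all genes (7.41% higher and 6.44% lower). Among them were Pparg and, further, Plin2 (0.25, edgeR FDR 0.241), Pdk1 (-0.25, edgeR FDR 0.207), Cd36 (1.07, edgeR FDR 0.226), Rxrg (1.99, edgeR FDR 0.218), Abcd2 (-0.39, edgeR FDR 0.278) and Phyh (-0.19, edgeR FDR 0.283). Rxrg was at 20.1, 26.4 and 28.3 CPM in KD females E68, E61 and E207, 12.1 CPM in CD female E249 and 54.0 CPM in KD male E59, the mice with the highest striatal marker levels.

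Tissue markers moved with these values in females. In the 4 libraries with the lowest cortical excitatory neuron markers, KD females E61, E68 and E207 and CD female E249, Acsl5 was at 87.4 to 108 CPM, against 116 CPM or more in the other 16. Acadm was at 47.3 to 53.8 CPM in those 4 libraries and at most 43.9 CPM in the others. Hadha followed this division only in part. It was at 64.4 CPM in E249, but among the females it was highest in E61, E68 and E207, and E227, at 72.4 CPM, was the lowest KD female. With the mean z-score of the cortical excitatory markers as a covariate, the log2 fold change in females was -0.14 for Acsl5, 0.04 for Acadm, 0.17 for Hadha, 0.17 for Hsd17b4 and 0.21 for Pdk4. With the striatal score it was -0.16, 0.10, 0.15, 0.14 and 0.28, and for Ucp2 it was 0.08. The unadjusted edgeR p of Hadha was 0.0753 with the cortical excitatory score and 0.125 with the striatal score, and so no longer under 0.05. With the score of the astrocyte markers it was 0.0375. Some other values that were above 0 without a covariate turned or neared 0, with the striatal score to -0.06 for Cpt1a, -0.33 for Cpt2, 0.03 for Acadl, -0.02 for Hadhb, 0.02 for Acaa2, 0.07 for Eci2, 0.13 for Slc25a20 and -0.29 for Ehhadh. With the cortical excitatory score they were 0.03 for Cpt1a, -0.31 for Cpt2, -0.00296 for Acadl, -0.09 for Hadhb, 0.06 for Acaa2, 0.10 for Eci2, 0.09 for Slc25a20 and 0.01 for Ehhadh. Not all values fell. Acot2, at 0.28 without a covariate, was at 0.48 with the striatal and 0.45 with the cortical excitatory score. Angptl4, at 0.39 without one, was at 0.73 and 0.20, and Ech1, at 0.33, was at 0.28 and 0.40. Ucp2 was at 0.42 with the cortical excitatory score. Of the 38 genes, 25 were above 0 under either covariate, with medians of 0.10 and 0.09. The share of all genes above 0 and their median under these covariates are not given here. As both scores differ between the diets in females, the covariate and the diet are partly confounded. Leaving out E227 and E249 would leave KD females at 324 to 408 CPM of cortical excitatory markers and CD females at 717 CPM or more, so that diet and tissue content cannot be told apart in the calls made without these mice, those of Acsl5 included. Astrocyte markers, all 8 detected, summed to 5387 to 6775 CPM in CD females and 5519 to 6922 CPM in KD females, and with their score as a covariate the median over the 38 genes was 0.10 and that of Angptl4 -0.24.

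**Figure D5:**
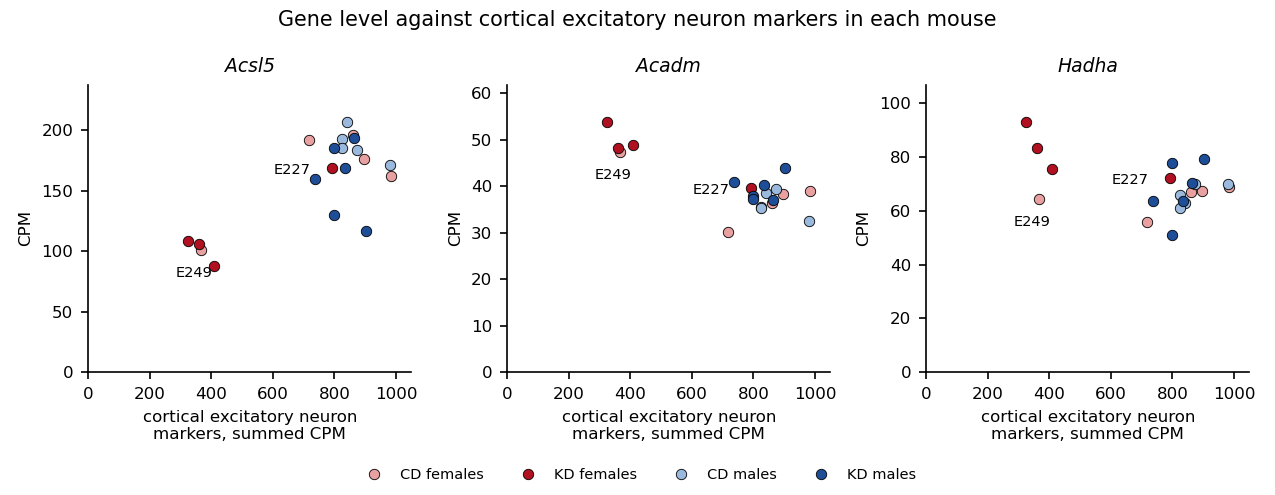
CPM of Acsl5, Acadm and Hadha (vertical axes) against the summed CPM of 7 cortical excitatory neuron markers (horizontal axes) in each of the 20 mice, coloured by group, with CD female E249 and KD female E227 named. In the 4 libraries with at most 408 CPM of the markers, Acsl5 is at 108 CPM or less and Acadm at 47.3 CPM or more.

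The 2 library series held different mice and were also read apart. In females the median log2 fold change of the 38 genes was 0.25 within series 1 (28 of 38 above 0) and 0.13 within series 2 (25 of 38 above 0). The share of all genes above 0 within each single series is not given here. The genes above 0 in both series were 17 of 38, against 22.6% of all genes, and those below 0 in both were 2, against 21.6%. In males the medians were 0.05 and -0.04, with 8 above 0 in both series and 9 below 0 in both, against 25.5% and 26.7%. Each series held 2 KD females and 2 or 3 CD females, so its values have wide errors. In series 1 the cortical excitatory markers summed to 324 and 360 CPM in the KD females and to 859 and 984 CPM in the CD females. Diet and tissue content therefore cannot be told apart in females of series 1, in the single-gene values given above too. In series 2 the markers summed to 408 and 793 CPM in the KD females and to 366, 717 and 895 CPM in the CD females.

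The genes of the set differed in base composition, and some libraries followed it. The GC content of their principal transcripts was lowest in Acsl4 and highest, 60.1%, in Acads, with a median of 50.7% over the 38 tested. In CD female E265 the mean z-score of the 19 genes with a GC content above the median was -1.50 and that of the other 19 was -0.293. In CD female E249 the values were -0.759 and 0.561, in KD male E256 -1.08 and -0.166, and in KD male E64 1.26 and -0.174. The 11 genes highest in E64, such as Etfb, Ech1 and Angptl4, had a median GC content of 53.7%, and the 9 highest in KD female E68, such as Hadhb, Crot and Etfa, one of 45.1%. The median log2 fold change in females was 0.22 in the GC-rich genes (18 of 19 above 0) and 0.09 in the others (14 of 19), and in males 0.11 (14 of 19) and -0.02 (4 of 19). The part of base composition in the differences above was not tested.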

How the data were processed

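Total RNA of a cortex piece from each of 20 mice had been sequenced. Reads had been aligned to mm10 with STAR and counted per gene by HTSeq within STAR, per the study's methods, and the versions and the counted strand are not given in the sources used here. The files deposited by the authors hold raw counts of reads per gene for 23413 genes, without normalization, and 2233 genes had no reads in any library. No column of another sample was present (0). Groups and replicates came from the sample labels. Genes with few counts were removed with edgeR's filterByExpr (15660 tested). Counts were scaled by the upper quartile and fitted in edgeR 4.0.16 (R 4.3.3) with the robust quasi-likelihood F-test, the 4 groups and the library series, read from the library numbers, as terms. P-values were adjusted by Benjamini-Hochberg over all tested genes, with thresholds of FDR 0.1 and 1.5-fold. The contrasts were the diet in females, in males and averaged, their difference, and the sex difference. Confidence intervals (95%) used the standard errors of the fit. CPM used library totals, and log2 CPM a prior count of 2. The model was tested on simulated data. Alternatives were other scalings, filters, DESeq2 1.42.0, the likelihood-ratio test, hidden factors from control genes (RUVg, which left out 5000 genes as possibly changed), each series, marker scores as covariates and leaving out mice. Tables and figures were made with pandas 2.3.3 and matplotlib 3.10.9.

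Transcript lengths, GC content, shared 50-base stretches and positions came from the GENCODE M21 annotation of GRCm38, in which 21777 of the 23413 names were found. Promoters came from RefSeq (GRCm38.p6). Depth (12207161 to 29109990 counts) limits the genes of lowest CPM most. The members, the gene lists and the marker lists were chosen with earlier results of these data known. Values by mouse were given for Cpt1a, Pdk4, Angptl4, Ucp2, Acot1 and Acot2, the best-known PPAR targets, and for the genes of smallest p (at most 15) among those with an unadjusted p under 0.05 in any of the 5 contrasts, and the rest by range and fold change. Of the related genes, Ppara, Ppard, Pparg, Ppargc1a and those with such a p for the diet were named, except 1 that is not reported here. Cpt1b could not be tested, and protein sequences were not used here.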

Additional observations from a re-analysis of the deposited data

Results flagged for a closer look

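Within groups of 4 to 10 mice, a library was marked where its gap to the nearest other mouse took up more of the group's range than Dixon's 95% critical value. Of 72 such groups (18 genes in 4 groups) 5 were marked, where chance marks about 1 in 20 (3.6). In CD females, Cpt2 was at 6.47 CPM in E249 against 4.21 CPM in the next mouse (ratio of gap to range 0.825), and Acadl was at 30.2 CPM in the same mouse against 26.4 CPM (0.712). Ucp2 was at 1.27 CPM in CD female E265 against 2.62 CPM in the next (0.802). In KD females, Pdk4 was at 20.7 CPM in E68 against 16.6 CPM (0.935). In KD males, Angptl4 was at 5.55 CPM in E64 against 2.003 CPM (0.804).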

How the results depend on the processing

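No paired analysis was possible because no animal number is shared between groups. In each comparison the results are the counts of the 38 genes called (FDR 0.1 and 1.5-fold) and of those with an unadjusted p under 0.05. The share of all genes past these thresholds can move between fits too, and it is not set beside the counts below. A changed count is therefore no result about the set alone. In females the second count, 7, was 3 without the filter, with the likelihood-ratio test or with each sex fitted alone, 13 with 2 RUVg factors, 0 in series 2, 1 with the striatal or astrocyte score, 2 with the cortical excitatory score, 14 without E227 and E249 (1 called, Acsl5) and 16 without E227, E249 and E59 (2 called). In males it was 0 and became 3 with 2 RUVg factors, 2 in series 1, 1 with the striatal score, 1 without E227 and E249 and 2 without those and E59. Averaged over the sexes, 6 became 10 with 1 RUVg factor, 12 with 2, 0 in series 2, 2 with the choroid plexus score, 0 with the astrocyte score and 10 without E227 and E249, and series 1 called 1 (Acsl5). For the interaction, 1 became 0 without the filter, with the likelihood-ratio test, in either series and with the striatal score, 2 with at least 10 counts, no series term, DESeq2 or the oligodendrocyte score, 3 with 1 RUVg factor or the choroid plexus score, 5 with 2 factors, 8 without E227 and E249, and 9 without those and E59 (2 called, Acsl5 and Ehhadh). For sex, 8 became 5 with no series term, 1 in series 1, 0 in series 2, 0 with the striatal score and 1 with the cortical excitatory score. Leaving out each mouse gave 0 to 1 called and 2 to 11 in females, 0 and 0 to 2 in males, 0 and 4 to 9 averaged, 0 and 0 to 3 for the interaction, and 0 and 3 to 15 for sex. The sex differences of Acadm (-0.0222) and Cpt2 (-0.0262) turned with the cortical excitatory score. The cause of these changes was not tested. Values of single genes and medians of the set were unchanged in 1348 recomputations. For a single gene this means the same direction and side of the threshold. For a median it means the same sign and a shift below the median standard error. Single genes lost the threshold in 244 and passed it in 27. Another 33 values without a call, medians of the set included, moved or changed sign, as in females Cpt1a to -0.06, Angptl4 to -0.24 and Acot2 to -0.10, and in males in series 2 Ucp2 to -0.45, Angptl4 to -0.31 and Acot2 to -0.11. The astrocyte, oligodendrocyte and cortical excitatory covariates and leaving out 3 mice were chosen after seeing the data. With 4 to 6 mice per group, 12 of 38 intervals in females reached 1.5-fold.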
